A study of Homo sapiens with 23 samples.

Results

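Chromatin bound by SIRT1 phosphorylated at T530 (pSIRT1) was mapped by ChIP-seq in K562 cells, a chronic myelogenous leukemia line, and the late S fraction is described here against the middle S fraction. The 2 lists were chosen by fraction and antibody from the 23 samples of the series, and all their regions on chromosomes 1 to 22 and X were used, 120213 in late S and 25542 in middle S. Both groups were untreated wild-type K562 cells separated by elutriation, which sorts cells by size, and both were precipitated with the same antibody. Each group had 1 library, so differences are between libraries, no test between phases was possible, and the elutriated phase of a fraction was taken from its label. A late S region that shared at least 1 bp with a middle S region is called shared, and any other late S region unshared.

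SIRT1 is a NAD-dependent deacetylase of histones and other proteins, and the series title places its phosphorylated form at replication origins. During S phase, gene-rich chromatin is in general copied early and gene-poor chromatin and much of the heterochromatin near centromeres late. Comparing late with middle S asks which binding sites were already present before the late part of replication.

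Most middle S regions were found again in late S, whereas most late S regions had no counterpart in middle S. Of the late S regions 25602 were shared, which is 21.3% (95% Wilson interval 21.1 to 21.5%), and 94611 were unshared. Of the middle S regions 23992 overlapped a late S region, which is 93.9% (93.6 to 94.2%), and 1550 did not. These intervals cover counting over regions as if they were independent, which neighbouring regions are not. The late S list covered 257 Mb and the middle S list 80.3 Mb, ratios of 3.20 in covered length and 4.71 in region number. The lists had 59.8 Mb in common, which was 23.2% of the late S length and 74.5% of the middle S length.

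The shared regions carried much of the late S signal. Late S regions held 11059472 reads in all as deposited, and 55.6% of these lay in shared regions. Shared regions also covered 94.6 of the 257 Mb of late S, more than their share by number. The median shared region held 120 reads and the median unshared region 40, a ratio of 3. The median widths were 2800 bp for shared and 1400 bp for unshared regions, a ratio of 2. Per kb, the medians were 38.5 reads in shared and 30.6 in unshared regions, a ratio of 1.26. No late S region held fewer than 16 reads, which raises reads per kb in narrow regions. Of the 12425 regions of 200 to 400 bp, 11109 were in the highest quartile of reads per kb. These ratios therefore do not divide the difference between width and reads per length. The middle 50% of shared regions held 65 to 229 reads and that of unshared regions 29 to 61. These middle ranges did not overlap in reads, though the full ranges did, with shared regions from 16 reads and unshared ones up to 885. In width the middle 50% overlapped, at 1600 to 4800 bp for shared and 800 to 2200 bp for unshared regions. At the edge of the definition, the 754 shared regions with only 200 bp of overlap had a median of 68 reads, and the 405 unshared regions within 200 bp of a middle S region had a median of 54.

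**Figure D1:**
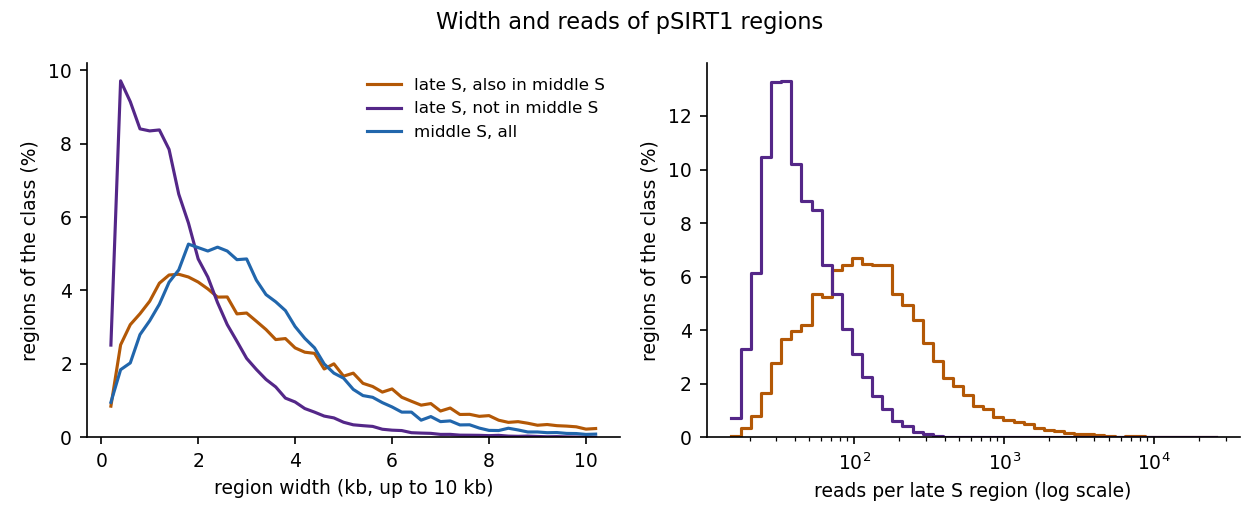
Left, widths in kb of shared late S regions, unshared late S regions and all middle S regions, as percent of each class. Right, reads per late S region on a log scale for the shared and unshared classes, whose medians were 120 and 40 reads.

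Presence in middle S climbed steeply with the reads of a late S region. In the lowest decile of reads, with 16 to 24 reads, 3.20% were shared. In decile 5, with 39 to 46 reads, 10.0% were shared, and in decile 9, with 97 to 158 reads, 44.3%. In decile 10, from 158 reads up, 81.8% were shared. All 871 late S regions with at least 1000 reads were shared, as were 2249 of 2256 with at least 500 reads.

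Width moved in the same direction. Of the 12425 late S regions of 200 to 400 bp, 6.95% were shared, against 22.3% of the 34621 regions of 1800 to 3200 bp and 97.1% of the 448 regions wider than 12800 bp. Wider regions meet another list more easily. With every region of both lists cut to 200 bp around its midpoint, the ratios of shared to unshared medians were 1.25 for the original width and 2.69 for reads. Strength also separated regions of like width. Among late S regions of 1800 to 3200 bp, 66.2% were shared in the highest quartile of reads per kb over the whole list and 10.3% in the lowest. Among those of 3400 to 6400 bp, the shares were 90.2 and 22.7%.

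From the middle S side there was little dependence on width. Between 92.0 and 97.8% of the middle S regions of every width class overlapped late S. The authors' decimal score, used only as a rank within middle S, mattered more. In the lowest decile by score 84.2% overlapped late S, and in decile 9 the share was 99.02%. The highest decile was slightly below this at 98.1%, and 14 of the 256 regions in the top 1% by score had no late S counterpart.

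**Figure D2:**
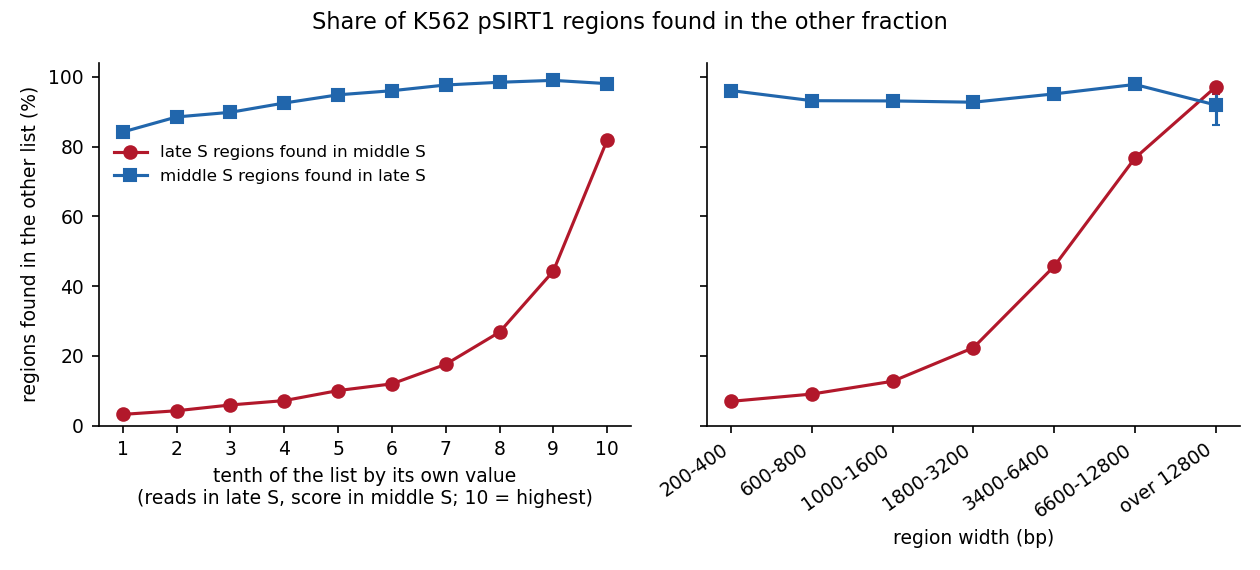
Percent of late S regions found in middle S and of middle S regions found in late S, by decile of the list's own value (left) and by width class in bp (right, bars are 95% Wilson intervals). The late S share reached 81.8% in its highest decile, while the middle S share stayed at 84.2% or above throughout.

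The positions of counterparts were compared pair by pair. There were 17169 pairs in which 1 late S region met 1 middle S region and neither met another. In these pairs the median width was 2800 bp in late S and 2400 bp in middle S, and the late S region was the wider in 57.9% and the middle S region in 33.8%. The late S region held the whole middle S region in 40.7% of pairs, the reverse was seen in 22.3%, the regions were staggered in 32.0%, and both ends were identical in 4.94%. Their midpoints lay a median of 500 bp apart. With every region of both lists cut to 200 bp around its midpoint, 3.15% of late S and 14.8% of middle S regions still overlapped the other list. Over the pairs, late S reads and middle S score had a Spearman rho of 0.59, given as a description since both values also grow with width. Of the pairs in the highest decile of late S reads, 74.8% were also in the highest decile of middle S score.

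Some regions split or merged between the lists. A further 1950 late S regions met 2 or more middle S regions, up to 9, and 3544 middle S regions met 2 or more late S regions, up to 4. A median of 75% of a shared late S region was covered by middle S. The median distance of unshared late S regions to the nearest middle S region was 32.6 kb, with 3.501% within 1 kb and 28.5% beyond 100 kb. The 1550 unshared middle S regions lay much closer to the longer list, at a median of 3.4 kb from a late S region and with 18.7% within 1 kb.

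Regions are named by position on hg19, without gene annotation. The late S region with most reads lay at chr4:49278601-49336200 with 24728 reads and was covered to 95.5% by 4 middle S regions. It overlapped all 4 other K562 pSIRT1 lists and all 5 lists of MCM2 phosphorylated at S139 (pMCM2), a subunit of the replicative helicase. The second lay at chr9:133745801-133841400 with 24659 reads and overlapped the middle S region of rank 3, at chr9:133765601-133840400. It overlapped the 4 other pSIRT1 lists and no pMCM2 list. The third lay at chr22:23477201-23634400 with 18686 reads, was 157200 bp wide, the widest of the list, and met 9 middle S regions. K562 cells carry an amplified BCR-ABL1 fusion that joins parts of chromosomes 9 and 22. The reads were not set against the K562 genomic DNA control here, and extra copies of a segment and stronger binding in it cannot be told apart from these ranks. Ranks 4 and 5 lay at chr11:1092001-1105400 with 13777 reads and at chr1:2582201-2634200 with 13324 reads.

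The highest-scoring middle S region lay at chr18:105201-112600 and overlapped a late S region of 9850 reads, rank 7 of that list. The next lay at chr1:2583401-2634200, within the late S region of rank 5. Ranks 4 and 5 lay at chr1:228744201-228784800 and chr21:9693601-9706600, and their late S counterparts held 9337 and 6944 reads.

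The strongest unshared late S regions were weaker by far and were not particular to late S. The first lay at chr3:126580201-126584600 with 885 reads, rank 1020 of the list, and a middle S region began or ended 2 kb away. The second lay at chr3:133686201-133687200 with 725 reads, 31.6 kb from middle S. The others lay at chr5:139129601-139139600 with 721 reads, at chr18:28565601-28566200 with 654 and at chr1:45062201-45069800 with 576. Each of these 5 regions overlapped the pSIRT1 lists of G1, early S, G2 and unfractionated cells and at least 4 of the 5 pMCM2 lists. Middle S was thus the only K562 pSIRT1 list from which they were absent.

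The strongest unshared middle S regions ranked between 10 and 23 in their list. They lay at chr10:42367401-42400800, chr7:61967001-61976800, chr1:121478401-121485600, chr10:42596601-42600600 and chr2:92305201-92326200. All 5 overlapped the G2 pSIRT1 list, the only other list with a decimal score in place of reads, and the HCT116 pSIRT1 list. The second also overlapped G1 and unfractionated cells, and the other 4 no further list. None of the 5 overlapped a pMCM2 or nascent-strand list. Nascent strands are short newly made DNA and mark sites where replication starts.

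The remaining pSIRT1 lists gave a view of the shared class that did not enter its definition. Of all late S regions, 44.5% overlapped G1, 18.2% early S, 24.8% G2 and 45.6% unfractionated cells. Shared regions exceeded unshared ones in each, at 77.1 against 35.7% for G1, 38.7 against 12.7% for early S, 56.0 against 16.3% for G2 and 75.1 against 37.6% for unfractionated cells. Counting the lists of G1, early S and G2, 33.6% of shared and 8.57% of unshared regions were in all 3, and 16.1% of shared and 58.7% of unshared regions in none. Seen the other way, 51.5% of the late S regions found in all 3 of these phases were in middle S, against 6.90% of those in none.

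The classes were also compared within the same width class and the same bin of 1 Mb, which held 23833 shared regions in 6054 strata with both classes. The weighted shares were then 73.2 against 46.3% for G1, 36.5 against 12.7% for early S and 50.6 against 19.2% for G2. Shared regions were thus found in other phases more often than unshared regions of like width in the same part of the genome. Reads were not matched in these strata, and shared regions held more reads. Presence in middle S and strength in late S therefore cannot be told apart in this or the other stratified comparisons. In HCT116, a colon carcinoma line, the pSIRT1 list of unsynchronised cells overlapped 66.5% of late S regions, 88.0% of the shared and 60.7% of the unshared, and 86.2 against 73.0% within strata.

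Taken over all widths, the pMCM2 lists went the same way. Of all late S regions, 14.3% overlapped pMCM2 of G1, 20.5% of early S, 20.9% of middle S, 20.7% of late S and 39.3% of G2. The pMCM2 list of G1 overlapped 27.99% of shared and 10.6% of unshared regions, and that of late S 32.6 and 17.5%. Within strata these became 26.7 and 12.5% for G1 and 32.1 and 17.2% for late S. For middle S they were 30.3 and 18.4%, and 31.1 and 18.5% within strata. For G2 the shares were closest, 43.2 and 38.3%, and they stood at 44.8 and 33.5% within strata. In wide regions the excess was not seen in every list. At 3400 to 6400 bp the G2 shares were 41.7% of shared and 41.8% of unshared regions. At 6600 to 12800 bp they were 45.5 and 46.8% for G2 and 33.2 and 34.5% for middle S.

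Over all widths together, nascent strands went the other way. Of all late S regions, 19.5% overlapped start sites of early S, 23.7% of middle S and 21.1% of late S. Shared regions were below unshared ones in all 3, at 15.7 against 20.5% for early S, 21.9 against 24.2% for middle S and 19.2 against 21.6% for late S, although shared regions were wider. Weighted over width classes alone, the differences were -5.65, -2.70 and -2.61 percentage points. Within the same width class and 1 Mb bin the early S difference shrank to -0.86 points and the others changed sign, to 2.63 and 2.58 points in favour of shared regions. For middle and late S the direction thus depended on whether regions were compared across the genome or within the same megabase. Across the genome it also depended on width. At 200 to 400 bp the shared and unshared shares were 14.7 and 15.9% for early S, 20.3 and 18.1% for middle S and 22.1 and 18.2% for late S. At 600 to 800 bp they were 19.96 and 19.56%, 28.76 and 24.04%, and 26.03 and 21.96%. In each class from 1000 to 12800 bp shared regions were below unshared ones in all 3 lists. No measure of spread was available for these differences, since each list was 1 library.

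**Figure D3:**
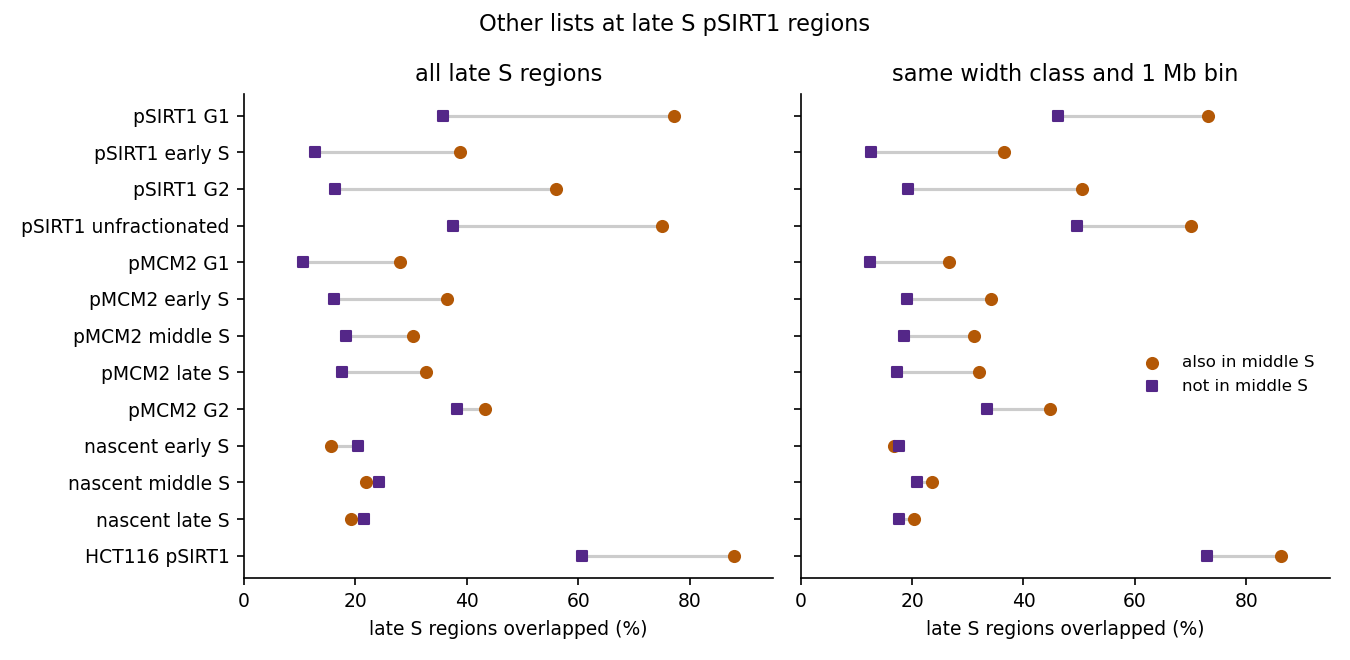
Percent of late S regions overlapped by each other list, for regions also in middle S (circles) and not in middle S (squares). Left, all late S regions. Right, weighted over strata of the same width class and 1 Mb bin, where the early S nascent-strand shares were 16.8 and 17.6%.

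Regional density was compared in bins of 1 Mb. Of 2881 bins with a region of either list, 3 had no late S region and 600 had no middle S region. The late S list had a median of 27 regions per bin, with a middle 50% of 11 to 64 and a highest value of 168. The middle S list had a median of 2, with 1 to 10 and a highest value of 103. Bin counts rose together, with a Pearson r of 0.85 and a Spearman rho of 0.86 over the 2881 bins. This is a description, since neighbouring bins are not independent and both lists come from the same genome. The labels name genomic DNA of K562 as the control for peak calling, but whether it was used for the middle S list, whose score is of unstated kind, is not known, and its part in the middle S excesses below was not tested.

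Middle S regions were the more concentrated. The densest 288 bins of each list held 30.01% of late S and 52.0% of middle S regions, and 226 of these bins were common to both. To hold 50% of the regions took 19.5% of the bins in late S and 9.34% in middle S. Each bin count was then divided by its list total, and bins with at least 20 regions of both lists together were compared. Of 1776 such bins, 842 (47.4%) had a late S share at least 1.5 times the middle S share, and 218 (12.3%) had a middle S share at least 1.5 times the late S share. The first kind held 28.7% of late S and 11.01% of middle S regions, with a median of 36 late S regions per bin. The second kind held 18.6% of late S and 39.95% of middle S regions, with a median of 116 late S regions per bin. Among the compared bins, those relatively rich in late S were thus sparser in late S regions than those rich in middle S. The minimum of 20 counted both lists together, and the late S list was the longer. Sparse bins could therefore pass it through late S regions alone, and 62 of the compared bins had no middle S region. The part of this minimum in the contrast was not tested.

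**Figure D4:**
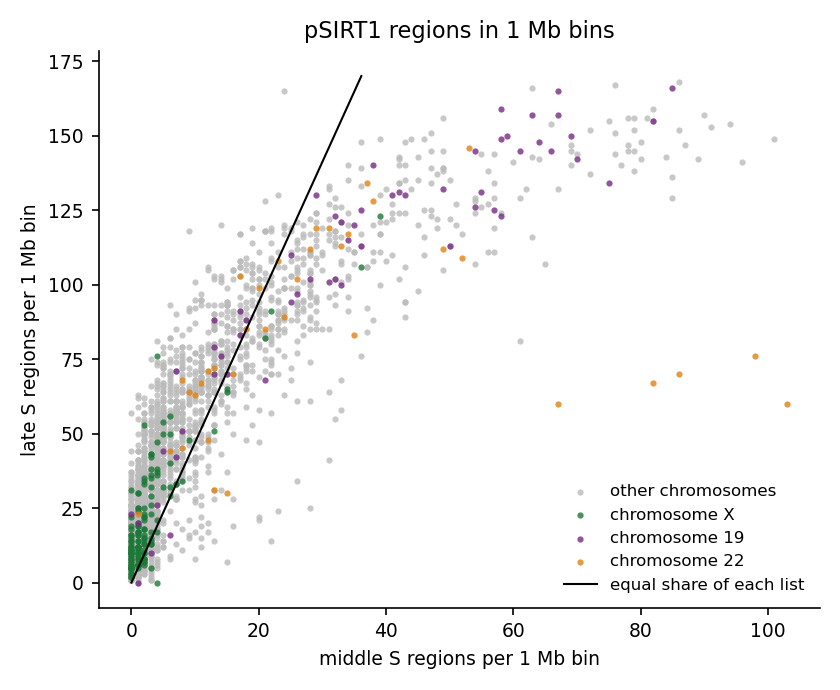
Each point is a bin of 1 Mb, with its middle S regions on the horizontal and its late S regions on the vertical axis. The line marks an equal share of each list. The isolated group of chromosome 22 points at the right has 60 to 76 late S and 67 to 103 middle S regions.

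The G1 list gave an ordering of the bins that used neither fraction. The bins were taken in 10 equal groups by their number of G1 regions. In the group richest in G1 regions lay 29.2% of late S and 48.1% of middle S regions, a ratio of list shares of 0.607. The ratio was 1.27 in group 8 and between 1.65 and 2.26 in groups 1 to 7. Late S regions were shared at 36.6% in the richest group and at 7.80% in the poorest. This gradient rested on the weaker late S regions. With the late S list limited to its 25542 regions of most reads, those with at least 92 reads, the ratios lay between 0.722 in the poorest group and 1.11, and the richest group was at 0.975. Only 50 of 744 bins then had a late S share at least 1.5 times the middle S share, and 42 the reverse. In their regional distribution the middle S regions thus resembled the stronger late S regions more than the whole late S list.

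Chromosomes varied in the same way only in part. Late S had its highest densities on chromosomes 19, 22, 17 and 16, with 105.5, 83.1, 76.4 and 75.3 regions per bin, and middle S on chromosomes 19 and 22, with 36.3 and 31.6. Both lists were sparsest on chromosomes 4, 13 and X. The ratio of late S to middle S share was highest on chromosomes 18 and X, 1.68 and 1.66, and lowest on chromosomes 22 and 19, 0.559 and 0.618. Chromosome 4, the sparsest in late S with 15.2 regions per bin, had a ratio of 1.09, and chromosomes 21 and 9, with 46.2 and 38.8, had 0.724 and 0.811, below the 0.850 of the denser chromosome 16. Late S regions were shared at 35.9% on chromosome 19 and at 12.4% on chromosomes 18 and X. With the late S list limited as above, the ratios of chromosomes 18, X, 19 and 4 were 1.09, 1.05, 0.991 and 0.837. Chromosome 22 remained the lowest, at 0.796.

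**Figure D5:**
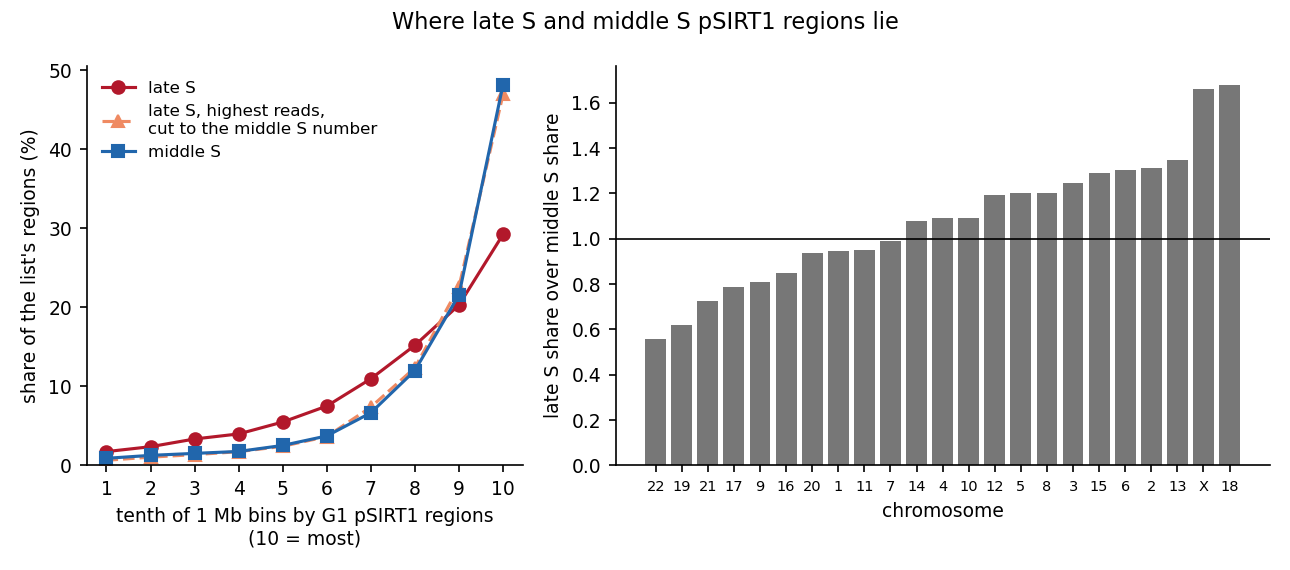
Left, percent of each list's regions in 10 groups of the 1 Mb bins ordered by their G1 pSIRT1 regions, for late S, for the late S regions of most reads cut to the middle S number, and for middle S. Right, ratio of late S to middle S share by chromosome, from 0.559 on chromosome 22 to 1.68 on chromosome 18.

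The 5 bins richest in middle S relative to late S lay on chromosomes 21, 22 and 1. The lowest ratio was at 11 to 12 Mb of chromosome 21, with 7 late S and 15 middle S regions and a ratio of 0.099 (95% interval 0.034 to 0.26, counting error only). Next came 22 to 23 Mb of chromosome 22 with 60 and 103 regions, 142 to 143 Mb of chromosome 1 with 14 and 22, 21 to 22 Mb of chromosome 22 with 76 and 98, and 19 to 20 Mb of chromosome 22 with 70 and 86. The bin of chromosome 22 at 22 to 23 Mb also held 33 of the 1550 unshared middle S regions, more than any other bin. The bin at 19 to 20 Mb held no nascent-strand region of early, middle or late S.

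There were 24 runs of at least 3 neighbouring bins rich in middle S. They held 101 of the 218 bins rich in middle S, on 16 chromosomes, and 6 of the runs began at the first base of their chromosome. Runs at the other end of chromosomes were not counted. Several lay at high coordinates, such as 136 to 142 Mb of chromosome 9, 77 to 82 Mb of chromosome 17 and 60 to 63 Mb of chromosome 20. The run at 16 to 24 Mb of chromosome 22 had 555 late S and 538 middle S regions, a ratio of 0.219 (0.194 to 0.247). By covered length it held 3.62 Mb of late S and 2.87 Mb of middle S, a ratio of 0.394, and with the limited late S list the ratio was 0.675. Late S regions there were wide, with a median of 3600 bp, and held a median of 160 reads. Their median reads per kb were 1.48 times the genome median, and pSIRT1 of G1, unfractionated cells and early S stood at 1.35, 1.22 and 0.71 times theirs. For pMCM2 the values were 1.01 for G1, 1.02 for early S, 1.35 for middle S, 1.20 for late S and 1.21 for G2, and for nascent strands 1.24, 1.17 and 1.09 in early, middle and late S. HCT116 pSIRT1 stood at 1.02 times its median. Region density of pSIRT1 there was 1.66 times the genome average in late S, 1.55 in G1 and 1.40 in early S. It was 2.82 in unfractionated cells, 5.32 in G2 and 2.01 in HCT116. Densities of pMCM2 regions lay between 0.724 times the average for G1 and 1.17 times for middle S. Nascent-strand regions were sparse there, at 0.378 to 0.457 times their averages, although their reads per kb were above the median. The part of these values in the ratio was not tested.

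Over the 24 runs the ratio lay between 0.194 and 0.557 with a median of 0.416. The runs were selected by this ratio, so its low size in them is no result. With the limited late S list it lay between 0.448 and 1.15 with a median of 0.866. Bins in the runs were dense in G1 pSIRT1 and sparse in late S nascent strands. G1 pSIRT1 was above its genome average in 82.2% of the 101 bins, against 32.7% of all bins, and late S nascent strands were below theirs in 89.1%, against 55.6% of all bins. All bins here means the 2881 bins, including those with fewer than 20 regions, which could not enter a run. The shares over the compared bins alone were not computed, so part of these gaps comes with the minimum of 20 regions. In the 289 bins richest in G1 regions, whether in a run or not, late S nascent strands were below average in 77.2%. Relative to their own genome averages, G2 pSIRT1 density exceeded G1 density in most runs. The exceptions lay at 71 to 74 Mb of chromosome 10 and 45 to 52 Mb of chromosome 19. On chromosome 11 they lay at 63 to 71 and 74 to 77 Mb. The G2 list holds a decimal score, as middle S does, and a part of peak calling in this was not tested. The 4 runs with late S below its genome average lay at 142 to 145 Mb of chromosome 1, 90 to 93 Mb of chromosome 2, 66 to 70 Mb of chromosome 9 and 9 to 12 Mb of chromosome 21. There the limited list still gave 0.592, 0.660, 0.729 and 0.448.

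At the other end, 62 of the compared bins had no middle S region and up to 57 late S regions, and their ratios are only lower bounds. Among bins with a middle S region, those with the highest ratios had 1 each. They were 19 to 20 Mb of chromosome 11 with 63 late S regions, 7 to 8 Mb of chromosome 6 with 62, 14 to 15 Mb of chromosome 10 with 59, 114 to 115 Mb of chromosome 11 with 55 and 59 to 60 Mb of chromosome 1 with 50. The ratio of the first was 13.4, with an interval of 2.32 to 537 that shows how little 1 region fixes it.

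The pMCM2 and nascent-strand lists of the same fractions were set beside these bins. Late S and middle S pMCM2 lists had 42953 and 35438 regions. Their median ratio of late S to middle S share was 1.03 in the 193 bins rich in middle S pSIRT1 that held at least 20 pMCM2 regions. It was 0.963 in the 659 such bins rich in late S pSIRT1, and also 0.963 over all 1499 bins compared. Of those 193 bins, 13 were also rich in middle S pMCM2, and of the 659, 64 were also rich in late S pMCM2, against 144 and 128 of all 1499 bins compared. For nascent strands, with 81959 late S and 67803 middle S regions, the medians were 0.766 in 171 bins rich in middle S pSIRT1 and 0.974 in 782 bins rich in late S pSIRT1, against 0.882 over all 1628 bins compared. Of the 171 bins, 54 were also rich in middle S nascent strands, against 325 of all 1628, and of the 782, 44 were also rich in late S nascent strands, against 71 of all 1628. The bins were selected by the pSIRT1 ratio, so the size of that ratio in them is no result. Phase, library and peak calling cannot be told apart in any of these ratios.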

How the data were processed

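Peak lists of K562 and HCT116 cells were used as deposited, without reads. Coordinates are hg19, and MACS and SICER were used without stated versions, per the submitters' processing notes. Per the labels, sheared genomic DNA of the same line was a control in peak calling, and whether it was used for the middle S and G2 pSIRT1 lists is not known. Aligner and thresholds were not given in the sources used here, and depth of the libraries is unknown. The late S list and the other lists named here, except middle S and G2 pSIRT1, hold whole numbers deposited by the authors that were taken as read counts per region, unscaled. The middle S and G2 lists hold a decimal score deposited by the authors, of unstated kind and used for ranks within middle S only. A difference in peak calling therefore cannot be told apart from phase.

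Of the deposited lines, 137 in late S and 45 in middle S lay on other chromosomes and were left out. No regions within a list overlapped. Ends in the HCT116 pSIRT1 list were extended by 1 bp onto the 200 bp grid of the others. Bins were assigned by region midpoints. A bin with no middle S region was given a floor of 3 regions. Strata were weighted by the product of both class sizes over their sum. Intervals of single bins and runs are exact binomial, at 95%. Named regions were the 5 highest per class and named bins the 5 at each end. Overlap code was tested on simulated data. Python 3.11.15, numpy 2.4.6, pandas 2.3.3, scipy 1.17.1 and matplotlib 3.10.9 were used. The comparison, members and lists were chosen with earlier results of these data known. No hg19 annotation or sequence was used here, so gene lists drawn up for the comparison were not applied.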

Additional observations from a re-analysis of the deposited data

Results flagged for a closer look

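The same step between fractions went opposite ways for the antibodies in covered length. For pSIRT1 the late S list covered 257 Mb and the middle S list 80.3 Mb, a ratio of 3.20. For pMCM2 the late S list covered 49.9 Mb and the middle S list 75.5 Mb, a ratio of 0.661. By region number both rose, with ratios of 4.71 and 1.21. Median pMCM2 widths were 1000 bp in late S and 1800 bp in middle S, and median pSIRT1 widths 1600 and 2800 bp. The difference was not tested, since each list is 1 library, and the middle S pSIRT1 list holds scores where the others hold counts.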

How the results depend on the processing

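The shares moved with the definition of overlap and with list length. The share of late S regions found in middle S and that of middle S regions found in late S were 19.5 and 90.4% when 50% or more of the shorter region had to overlap, 23.1 and 94.8% within 1 kb, and 21.6 and 94.9% for the higher 50% of each list. With the late S list cut to the middle S length they were 61.2 and 66.3%. In alternatives chosen after seeing the data they were 3.15 and 14.8% for 200 bp around region midpoints, and 20.9 and 94.2% without chromosomes 9, 13 and 22. The ratio of median reads of shared to unshared regions was 3.12, 2.77, 2.68, 1.60, 2.69 and 2.97 under these 6 settings. The width ratio was 2 under the first, second and last, 1.5 for the higher 50%, 1.17 with equal lengths and 1.25 by midpoints. No ratio fell below 1. Spearman rho of bin counts was 0.83 for the higher 50%, 0.89 with equal lengths, 0.91 in 5 Mb bins, 0.88 by covered length and 0.87 without the 3 chromosomes. Bins rich in late S numbered 393 of 1065, 50 of 744, 337 of 591, 868 of 1776 and 778 of 1635 under these 5 settings, and bins rich in middle S 146, 42, 56, 144 and 208. Causes of these shifts were not tested. No paired analysis was possible because each fraction had 1 library. Replicates cannot be left out for the same reason. With depth unknown, weak regions missing from either list may be undetected or absent, and these cannot be told apart.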
